A study of Mus musculus with 16 samples.

Results

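Constitutive proteasome subunits are described here in liver tumours and in paired non-tumour liver of mice that express a c-MYC transgene with or without a REG3A transgene. Members were all genes with an array row of a single symbol of the Psma, Psmb, Psmc or Psmd families, without the interferon-induced subunits Psmb8, Psmb9 and Psmb10 and without the thymus subunit Psmb11. The rule gave 34 of the 22180 genes with such a row, and a gene with several rows was represented by its brightest one (mean over 16 arrays). Of these 34, 33 passed the filter on low values and were among the 13555 genes tested. Psma5, an alpha subunit, was not tested, because its row lay below the median of every array, with levels between 3.91 and 4.36. Psma4 was no member, since its rows carried several symbols.

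Transcripts were measured on 1-colour Affymetrix arrays in 8 mice of 18 months, on a C57BL/6J background. In 4 MYC/REG3A mice (labelled MYC+/+, REG3A+/+) and 4 MYC mice (labelled MYC+/+, REG3A-/-), each animal gave 1 tumour sample and 1 sample of its non-tumour liver. All groups carry MYC, expressed in the liver under woodchuck hepatitis virus control, so there was no liver without the transgene. The lines came from crosses of REG3A and WHC-MYC transgenic mice, and sex is not given in the sources used here. The groups were MYC/REG3A tumours, MYC/REG3A non-tumour liver, MYC tumours and MYC non-tumour liver, with 4 arrays each.

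The proteasome degrades proteins that carry ubiquitin chains. Its 20S core is a barrel in which outer rings of alpha subunits gate the entry and inner rings of beta subunits hold the catalytic sites. The 19S particle caps the barrel: its base unfolds substrates with a ring of ATPases, and its lid removes ubiquitin. In mammalian cells the subunit genes are known to be expressed together, with the transcription factor Nfe2l1 (Nrf1) raising them when proteasome activity is lost, and interferon exchanges the catalytic beta subunits for the immunoproteasome forms.

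Promoters of the 2 subunits with the largest increase in MYC tumours and of the 2 that fell there are shown, because these 4 subunits went opposite ways within 1 complex. Each runs from 250 bases before to 50 bases after the annotated gene start, 5′ to 3′ on the strand of the gene, from the RefSeq promoter table (build GRCm38.p6). Psmb4 is at chr3:94886909-94887208 on the minus strand, and Psmc5 at chr11:106255935-106256234 on the plus strand. Psmd6 is at chr14:14120896-14121195 on the minus strand, and Psmc6 at chr14:45329574-45329873 on the plus strand. Capitals mark matches, on either strand, to any of 4 motifs: the E-box CACGTG, the CCAAT box, the antioxidant response element core TGACNNNGC and the ETS motif CCGGAAG.
Psmb4: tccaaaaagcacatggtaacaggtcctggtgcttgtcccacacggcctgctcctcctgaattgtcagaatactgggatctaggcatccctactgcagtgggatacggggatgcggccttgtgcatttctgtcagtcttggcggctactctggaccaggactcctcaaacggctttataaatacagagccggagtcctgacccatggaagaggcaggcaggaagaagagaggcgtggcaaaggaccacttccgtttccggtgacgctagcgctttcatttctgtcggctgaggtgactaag
Psmc5: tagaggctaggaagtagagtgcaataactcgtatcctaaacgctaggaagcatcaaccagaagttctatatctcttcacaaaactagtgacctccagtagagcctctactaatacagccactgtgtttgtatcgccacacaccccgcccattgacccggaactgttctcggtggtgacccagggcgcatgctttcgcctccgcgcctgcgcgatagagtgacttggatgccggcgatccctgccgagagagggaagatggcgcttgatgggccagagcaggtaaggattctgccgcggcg
Psmd6: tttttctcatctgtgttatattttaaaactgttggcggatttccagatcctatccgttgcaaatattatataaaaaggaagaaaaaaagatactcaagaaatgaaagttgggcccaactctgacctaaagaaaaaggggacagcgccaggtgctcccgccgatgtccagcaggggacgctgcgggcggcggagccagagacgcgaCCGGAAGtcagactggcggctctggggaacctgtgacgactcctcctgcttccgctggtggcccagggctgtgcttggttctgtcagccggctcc
Psmc6: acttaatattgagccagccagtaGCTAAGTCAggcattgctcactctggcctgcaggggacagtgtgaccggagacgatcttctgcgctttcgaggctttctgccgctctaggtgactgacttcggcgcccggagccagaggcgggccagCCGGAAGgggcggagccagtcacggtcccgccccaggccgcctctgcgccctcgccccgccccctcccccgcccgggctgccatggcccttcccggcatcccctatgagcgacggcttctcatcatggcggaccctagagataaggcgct
Psmb4 and Psmc5 held none of the 4 motifs in this window. Psmd6 held CCGGAAG. Psmc6 held CCGGAAG and, as the reverse complement GCTAAGTCA, the antioxidant response element core, and these matches did not overlap.

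Promoters could be matched for 27 of the 34 members, with 29 promoters in all, and were set beside 13446 promoters of tested genes and all 32851 promoters in the table. CCGGAAG stood in 11 of 29 member promoters (37.9%), against 15.4% of the promoters of tested genes and 8.86% of all promoters. The genes with it were Psma6, Psmc1, Psmc2, Psmc6, Psmd2, Psmd4, Psmd6, Psmd11, Psmd12 and Psmd13. In MYC tumours Psmd4 rose, Psmc6 and Psmd6 fell and the others were not called, so the motif stood in subunits of both directions. The E-box CACGTG stood in 1 of 29 (3.45%), that of the base assembly chaperone Psmd9, against 9.62% and 7.15%. The antioxidant response element core stood in 5 of 29 (17.2%), those of Psmb5, Psmb6, Psmc6, Psmd9 and Psmd12, against 14.1% and 12.4%. CCAAT stood in 37.9% of member promoters, against 36.7% and 37.4%. A match is a string of letters and not a binding site, and these shares were not tested.

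All values below are log2 RMA levels as deposited, and a change is tumour minus own non-tumour liver on the log2 scale. Levels of different genes come from different probes and were not set against each other. Tests are those of limma over all 13555 tested genes with the mouse as a block, and a gene is called at an adjusted p under 0.05. Across the arrays, medians lay between 4.90 and 4.97. On the first principal component (49.2% of the variance) MYC/REG3A mice 2 and 4 had tumours at -4.21 and 2.55, away from the other tumours at 32.7 to 42.3 and from the livers at -31.0 to -26.4. The log2 of the summed level of 8 hepatocyte genes lay between 15.3 and 15.6 in all samples, but the brightest rows make up most of this sum. Gene by gene, the median change of the 8 was -0.13 in MYC/REG3A tumours and -0.13 in MYC tumours. Changes above 0 were seen for 0 of 8 and 2 of 8, against 47.2% and 47.0% of all tested genes. Of these 8, Serpina1a fell by 0.72 in MYC/REG3A tumours, and Serpina1a and Hnf4a fell by 0.63 and 0.28 in MYC tumours (limma). Both tissues were bulk, so fewer cells of a type and less RNA per cell cannot be told apart.

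Constitutive subunits changed little and in both directions in tumours. In MYC/REG3A tumours 0 of 33 were called by limma, where 12.5% of all tested genes were (7.58% higher and 4.88% lower), and 6 had an unadjusted p under 0.05, as did 30.1% of all tested genes. In MYC tumours 8 of 33 (24.2%) were called, where 33.2% of all tested genes were. An unadjusted p under 0.05 was seen there for 10 of 33, against 44.4% of all tested genes. Of these 8, 6 rose (18.2% of the 33, against 17.4% of tested genes) and 2 fell (6.06%, against 15.8%). The share of subunits that rose was close to that of all genes, and the share that fell was smaller than that of all genes. The largest change of any subunit was 0.54 on the log2 scale, or 1.46-fold, in Psmb4. The median change was 0.07 in MYC/REG3A tumours and 0.11 in MYC tumours, against -0.02 and -0.03 for all tested genes. Left-out mice moved these medians: in MYC/REG3A tumours it was 0.04 without mouse 1 or 4 and 0.12 without mouse 2, and in MYC tumours 0.06 without mouse 1 and 0.17 without mouse 4. Changes above 0 were seen for 23 of 33 subunits (69.7%) in MYC/REG3A tumours and 26 of 33 (78.8%) in MYC tumours, where 47.2% and 47.0% of all tested genes lay above 0. The median size of the change, whatever its sign, was smaller than that of all tested genes, at 0.13 against 0.20 in MYC/REG3A tumours and 0.14 against 0.27 in MYC tumours. The median SD within a group was smaller for subunits too, at 0.187 against 0.211 in MYC/REG3A tumours and 0.146 against 0.204 in MYC tumours. Sizes of change were not adjusted for this. The 33 include Psma8 of the testis and the assembly chaperones Psmd5, Psmd9 and Psmd10. Without these, 0 of 29 were called in MYC/REG3A tumours and 8 of 29 (27.6%) in MYC tumours, against 12.5% and 33.2% of all tested genes. The median changes of the 29 were 0.07 and 0.12. Without MYC/REG3A mice 2 and 4, the median change in MYC/REG3A tumours was 0.09, and again 0 of 33 were called. That count, from fewer mice, was not set beside the share of all tested genes called in the same fit.

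**Figure D1:**
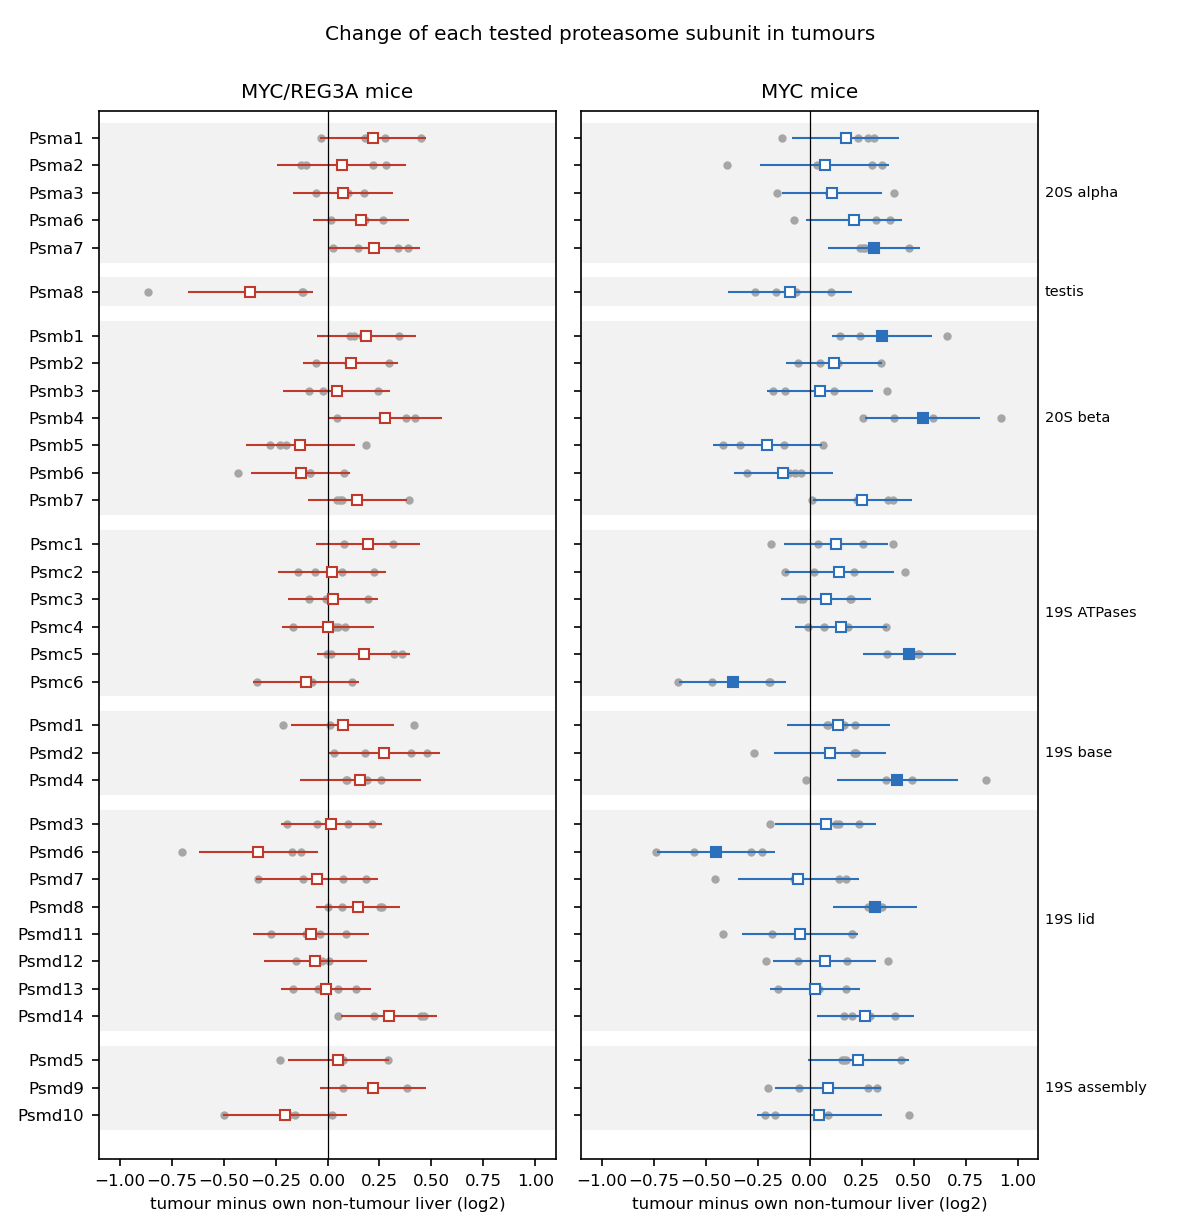
Change of each of the 33 tested subunits in tumours (horizontal axis, tumour minus own non-tumour liver, log2), in MYC/REG3A mice on the left and MYC mice on the right. Squares are limma estimates with 95% intervals, filled where the adjusted p is under 0.05, and grey points are the 4 mice. The 8 filled squares are all in MYC mice, where 6 lie right of 0 and 2, Psmd6 and Psmc6, lie left of it.

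Among the alpha subunits, which form the gated outer rings of the core, Psma7 was the member that rose in MYC tumours. Its levels were 8.74, 8.65, 8.85 and 8.69 in MYC/REG3A tumours, against 8.35, 8.62, 8.51 and 8.54 in their livers. In MYC tumours they were 8.65, 8.95, 8.63 and 8.72, against 8.39, 8.47, 8.37 and 8.48 in the livers. In both genotypes every tumour lay above every liver sample. The increase was 0.31 (SE 0.0995) in MYC tumours, with an adjusted p of 0.0383 by limma, and the change was 0.22 in MYC/REG3A tumours, with an adjusted p of 0.163. The MYC call was lost when any 1 of the 4 MYC mice was left out, when each array was centred on its median (tested genes), and in a fit over the MYC arrays alone. Apart from Psma8, described below, all 5 tested alpha subunits had estimates above 0 in both genotypes. These ran from 0.07 to 0.22 in MYC/REG3A mice and from 0.07 to 0.31 in MYC mice. The smallest was that of Psma2, with levels of 9.10, 8.66, 8.71 and 9.04 in MYC/REG3A tumours and 8.82, 8.78, 8.81 and 8.82 in their livers. In MYC tumours Psma2 stood at 8.97, 8.49, 9.003 and 9.17, and in MYC livers at 8.67, 8.89, 8.97 and 8.82, so tumours and livers overlapped in both genotypes. Its estimate of 0.07 turned to -0.0032 in MYC/REG3A mice without mouse 1.

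Psma8 is the alpha subunit of the testis, and its row lay near the array medians. It passed the filter through the livers of MYC/REG3A mice 1 and 2 and MYC mouse 4 and the tumour of MYC mouse 2. Its values lay below the array median in all other samples, among them every MYC/REG3A tumour. It measured 4.50, 4.88, 4.52 and 4.66 in MYC/REG3A tumours, against 5.36, 5.005, 4.90 and 4.78 in the livers. In MYC mice it measured 4.48, 4.90, 4.65 and 4.74 in tumours and 4.64, 4.80, 4.72 and 5.01 in livers. Each MYC/REG3A tumour lay below its own liver, most in mouse 1. Its change of -0.37 in MYC/REG3A tumours, the lowest of the 33, had an adjusted p of 0.0959 by limma, and in MYC tumours the change was -0.10.

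Of the 7 constitutive beta subunits, Psmb4 and Psmb1 rose in MYC tumours; both are structural subunits without a catalytic site. Psmb4 levels were 10.54, 10.12, 10.37 and 10.52 in MYC/REG3A tumours, against 10.17, 10.07, 10.10 and 10.10 in the livers. In MYC mice they were 10.83, 10.58, 10.31 and 10.44 in tumours, against 9.91, 9.99, 9.91 and 10.19 in livers. The MYC groups did not overlap, while in MYC/REG3A mice the tumour of mouse 2 lay below the highest liver. The increase in MYC tumours was 0.54 (SE 0.123), with an adjusted p of 0.00884 by limma, and this call was kept under all 11 alternatives, with adjusted p between 0.00362 and 0.0407. In MYC/REG3A tumours the change was 0.28, with an adjusted p of 0.164.

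Psmb1 levels were 9.79, 9.61, 9.50 and 9.62 in MYC/REG3A tumours, against 9.45, 9.48, 9.39 and 9.45 in the livers. In MYC tumours they were 9.59, 9.54, 9.82 and 9.65, against 9.26, 9.30, 9.16 and 9.50 in the livers. Every tumour lay above every liver of its genotype. The increase was 0.35 (SE 0.107; adjusted p 0.0331, limma) in MYC tumours, and the change was 0.19 (adjusted p 0.275) in MYC/REG3A tumours. The MYC call was lost without MYC mouse 1, 2 or 3 and in a fit over the MYC arrays alone.

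The 3 catalytic beta subunits were not called in either genotype. Psmb5, with the chymotrypsin-like site, had a change of -0.13 in MYC/REG3A tumours and -0.20 in MYC tumours. Psmb6, with the caspase-like site, stood at -0.13 in both. Psmb7, with the trypsin-like site, had positive changes of 0.14 in MYC/REG3A tumours and 0.25 in MYC tumours (adjusted p 0.0954, limma), and its tumours lay above their own livers in all 8 mice. The smallest change among the beta subunits was that of Psmb3, a structural subunit, at 0.04 in MYC/REG3A tumours and 0.05 in MYC tumours. Its levels were 6.02, 6.10, 6.19 and 6.46 in MYC/REG3A tumours, against 6.04, 6.19, 6.15 and 6.22 in livers. They were 6.21, 6.13, 6.37 and 6.23 in MYC tumours, against 6.10, 6.25, 6.00 and 6.40 in livers, and tumours and livers overlapped.

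The 6 ATPases of the base, which pull substrates into the core, held subunits of both directions in MYC tumours: Psmc5 rose and Psmc6 fell. Psmc5 levels were 7.62, 7.59, 7.52 and 7.64 in MYC/REG3A tumours, against 7.30, 7.23, 7.50 and 7.64 in the livers. In MYC mice the 4 tumours were closely alike at 7.65, 7.65, 7.62 and 7.60, against 7.13, 7.16, 7.09 and 7.23 in the livers. The MYC groups did not overlap, while the livers of MYC/REG3A mice 3 and 4 were as high as their tumours within 0.02. The increase was 0.48 (SE 0.1; adjusted p 0.00611, limma) in MYC tumours, kept under all 11 alternatives with adjusted p between 0.00141 and 0.0258, and the change was 0.17 (adjusted p 0.277) in MYC/REG3A tumours.

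Psmc6 measured 9.18, 9.44, 9.37 and 9.62 in MYC/REG3A tumours, against 9.52, 9.52, 9.49 and 9.50 in the livers. In MYC tumours it measured 8.98, 9.29, 8.87 and 9.06, against 9.17, 9.48, 9.51 and 9.53 in the livers. All 4 MYC tumours lay below their own livers, though the groups overlapped, and in MYC/REG3A mice the tumour of mouse 4 lay above its liver. In MYC tumours Psmc6 fell by 0.37 on the log2 scale (SE 0.115; adjusted p 0.0322, limma), a call lost without MYC mouse 3 or 4 and in a fit over the MYC arrays alone. In MYC/REG3A tumours the change was -0.10 (adjusted p 0.592). Among the other 4 ATPases, Psmc3 had the smallest change in MYC tumours. It stood at 7.93, 7.69, 7.94 and 7.95 in MYC/REG3A tumours and 7.93, 7.78, 7.75 and 7.94 in their livers. In MYC mice Psmc3 stood at 7.88, 7.96, 7.71 and 7.89 in tumours and 7.69, 7.77, 7.76 and 7.92 in livers. Its changes were 0.03 in MYC/REG3A tumours, where those of Psmc2 (0.02) and Psmc4 (0.00095) were smaller, and 0.08 in MYC tumours. Both were uncalled, and tumours and livers overlapped.

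**Figure D2:**
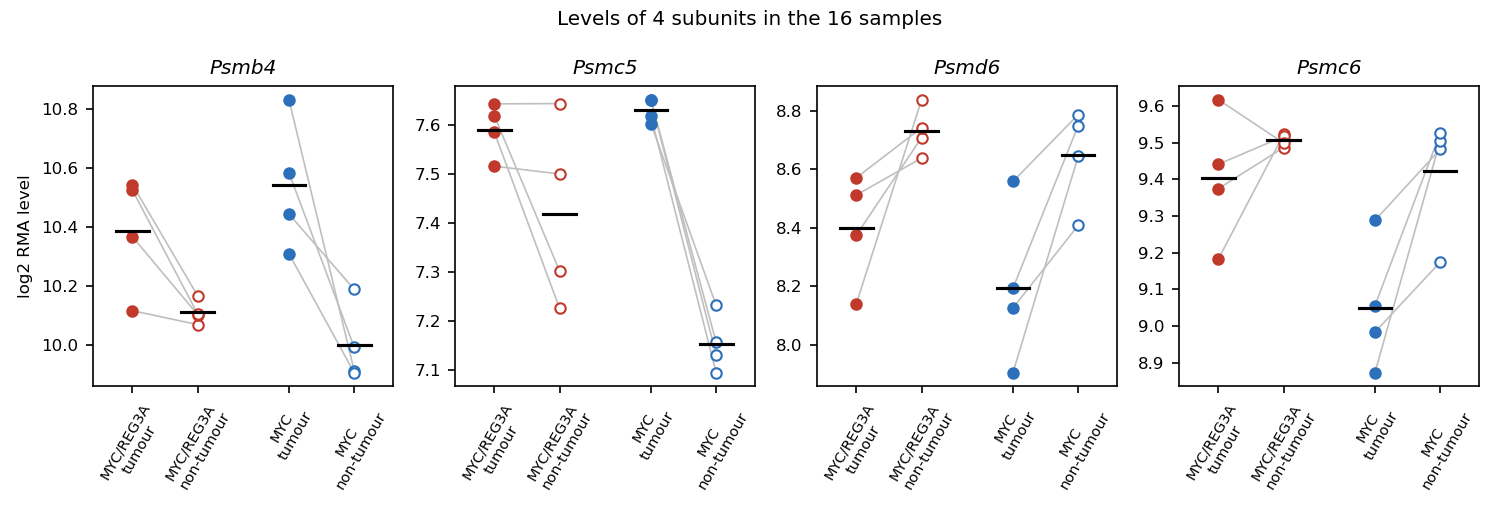
Levels (vertical axes, log2 RMA, each with its own scale) of Psmb4, Psmc5, Psmd6 and Psmc6 in the 16 samples, with filled points for tumours, open points for non-tumour liver, black lines for group means and grey lines joining samples of a mouse. Psmb4 and Psmc5 are higher in all 4 MYC tumours than in all 4 MYC livers, and Psmd6 is lower in the tumour of all 8 mice than in its own liver.

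In the rest of the base, Psmd1 and Psmd2 are scaffolds and Psmd4 is a ubiquitin receptor. Psmd4 measured 7.77, 7.71, 7.79 and 8.04 in MYC/REG3A tumours, against 7.68, 7.45, 7.60 and 7.95 in the livers. It measured 8.46, 7.97, 8.03 and 7.82 in MYC tumours, against 7.61, 7.48, 7.66 and 7.85 in the livers. The tumour of MYC mouse 1 had the largest excess over its liver, and the tumour of MYC mouse 4 lay just below its liver. The increase in MYC tumours was 0.42 (SE 0.131; adjusted p 0.0333, limma), and the change in MYC/REG3A tumours was 0.16 (adjusted p 0.455). The MYC call was lost in 5 of 11 alternatives, among them without MYC mouse 1, 2 or 3. Psmd2 stood at 9.95, 9.40, 9.92 and 9.80 in MYC/REG3A tumours and 9.55, 9.37, 9.44 and 9.62 in their livers, with a change of 0.27 (adjusted p 0.161). In MYC mice it stood at 9.54, 9.80, 9.49 and 9.37 in tumours and 9.33, 9.58, 9.27 and 9.64 in livers, with a change of 0.10. Only MYC mouse 4 had a lower tumour than liver for Psmd2.

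The lid also held both directions in MYC tumours: of its 8 subunits, Psmd8 rose and Psmd6 fell, both structural. Psmd8 measured 10.43, 10.31, 10.45 and 10.55 in MYC/REG3A tumours, against 10.42, 10.24, 10.19 and 10.30 in the livers. It measured 10.79, 10.57, 10.74 and 10.54 in MYC tumours, against 10.45, 10.28, 10.46 and 10.20 in the livers. The MYC groups did not overlap, while in MYC/REG3A mice they did. The increase was 0.31 (SE 0.0903; adjusted p 0.0248, limma) in MYC tumours, and the change was 0.15 (adjusted p 0.31) in MYC/REG3A tumours. Leaving out any single MYC mouse ended the call, as did centring each array on its median (tested genes) and a fit over the MYC arrays alone.

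Psmd6 measured 8.14, 8.37, 8.51 and 8.57 in MYC/REG3A tumours, against 8.84, 8.71, 8.64 and 8.74 in the livers. It measured 8.13, 8.56, 7.90 and 8.19 in MYC tumours, against 8.41, 8.79, 8.64 and 8.75 in the livers. Every tumour lay below its own liver in all 8 mice, and in MYC/REG3A mice the groups did not overlap. Psmd6 fell by 0.45 on the log2 scale (SE 0.128; adjusted p 0.0232, limma) in MYC tumours, a call lost without MYC mouse 3 or 4. In MYC/REG3A tumours the change was -0.33 (SE 0.128; adjusted p 0.113). Psmd14, the deubiquitinase of the lid, had tumours above livers in all 8 mice, with changes of 0.30 (adjusted p 0.0863, limma) in MYC/REG3A mice and 0.27 (adjusted p 0.0736) in MYC mice, and was not called. Psmd13, another structural subunit, had the smallest change. It measured 7.40, 7.10, 6.96 and 7.25 in MYC/REG3A tumours and 7.27, 7.05, 7.13 and 7.30 in their livers, and 7.15, 7.10, 7.31 and 7.19 in MYC tumours and 7.10, 7.07, 7.13 and 7.34 in MYC livers. Tumours and livers overlapped, with changes of -0.01 and 0.02.

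The base assembly chaperones with a Psmd name, Psmd5, Psmd9 and Psmd10, were not called in either genotype. Psmd10, also known as gankyrin, measured 7.61, 7.88, 7.83 and 7.80 in MYC/REG3A tumours, against 8.11, 7.85, 7.99 and 7.99 in the livers. It measured 7.80, 7.96, 8.30 and 7.96 in MYC tumours, against 7.96, 7.87, 7.82 and 8.18 in the livers. Tumours and livers overlapped in both genotypes, with changes of -0.20 (adjusted p 0.34, limma) in MYC/REG3A mice and 0.05 in MYC mice. Without MYC mouse 3 the estimate in MYC mice was -0.10.

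Counted by direction alone, 6 subunits lay higher in the tumour than in the own liver of all 8 mice: Psma7, Psmb1, Psmb4, Psmb7, Psmd8 and Psmd14. Of all tested genes 14% did so. Psmd6 was the 1 subunit lower in all 8 tumours, as were 12.6% of all tested genes. Within MYC/REG3A mice 2 subunits had every tumour above every liver (11.2% of tested genes) and 1 had every tumour below (8.29%). Within MYC mice 6 had every tumour above every liver (16% of tested genes) and 0 had every tumour below (14.1%). The changes of the 33 subunits had the same sign in both genotypes for 30 of them, and were of larger size in MYC mice for 24. Across the 33 subunits the changes of the genotypes had a Pearson r of 0.772, given as a description, since subunits share their arrays and mice.

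The subunits moved by mouse as well as by gene. Their median change was 0.14, 0.03, 0.02 and 0.09 in MYC/REG3A mice 1 to 4, and 0.20, 0.12, 0.24 and -0.12 in MYC mice 1 to 4. MYC mouse 4 was the 1 mouse with a median below 0, with 11 of 33 subunits above 0, where the other mice had between 18 and 28. The non-tumour liver of that mouse had the highest level of the 4 MYC livers for 26 of 33 subunits, while the liver of MYC mouse 1 had the lowest for 19. Among tumours, MYC mouse 4 had the lowest level of its group for 11 subunits and the highest for 4. Without MYC mouse 4 the median change in MYC tumours was 0.17, and 4 subunits were called higher and 0 lower. The share of all tested genes called in that fit was not set beside this count. Within groups the median SD of a subunit over the 4 mice was 0.187 in MYC/REG3A tumours and 0.0993 in their livers, and 0.146 in MYC tumours and 0.150 in their livers.

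**Figure D3:**
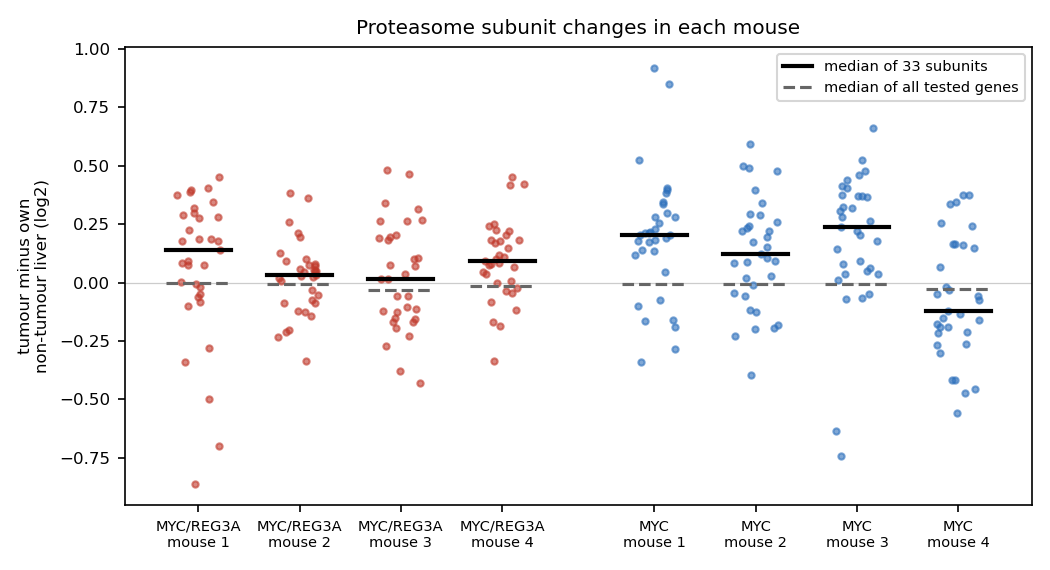
Changes of the 33 subunits (points; vertical axis, tumour minus own non-tumour liver, log2) in each of the 8 mice, MYC/REG3A mice left of MYC mice. Solid lines are medians of the subunits and dashed lines medians of all tested genes; 7 of 8 solid lines lie above 0, and that of MYC mouse 4 lies at -0.12.

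The larger number of calls in MYC tumours does not show a difference between genotypes, which was tested directly. The difference of the tumour changes, MYC/REG3A minus MYC, was called by limma for 0 of 33 subunits and for 0.00738% of all tested genes. An unadjusted p under 0.05 was seen for 0 of 33, against 5.58% of tested genes. The differences ran from -0.31 in Psmc5 (95% interval -0.62 to 0.01) to 0.27 in Psmc6 (-0.09 to 0.63). The median difference was -0.05, and it ranged from -0.11 without MYC mouse 4 to -0.012 without MYC mouse 1. The widest 95% interval, which is not adjusted for the number of genes, reached 0.437 to either side of its estimate. A call needs an adjusted p under 0.05 over all tested genes. With 4 mice a group, differences larger than 0.437 could therefore also go uncalled.

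Between genotypes within a tissue, no subunit was called either. In tumours, MYC/REG3A minus MYC gave 0 of 33 calls by limma (0.0221% of tested genes) and 2 at an unadjusted p under 0.05 (10.6% of tested genes), Psmc6 and Psmd8. Psmc6 was higher in MYC/REG3A tumours by 0.35 (95% interval 0.11 to 0.60; adjusted p 0.349, limma). Psmd8 differed by -0.23 (-0.43 to -0.02; adjusted p 0.444). In non-tumour liver there were 0 of 33 calls, as for 0% of tested genes, and 1 subunit at an unadjusted p under 0.05 (5.45% of tested genes), Psmc5. Its levels, given above, differed by 0.27 (0.07 to 0.46; adjusted p 0.904, limma), with the lowest MYC/REG3A liver and the highest MYC liver both at 7.23. In liver 28 of 33 subunits (84.8%) had estimates above 0, against 48.9% of all tested genes, with a median of 0.07 and a range of -0.07 to 0.27. That median was 0.029 without MYC mouse 1, 0.034 without MYC/REG3A mouse 4 and 0.11 without MYC mouse 4. In tumours 16 of 33 (48.5%) did, against 47.5% of all tested genes, with a median of -0.01 and a range of -0.24 to 0.35. This median took either sign with 1 mouse left out, between -0.032 without MYC/REG3A mouse 1 and 0.034 without MYC mouse 3.

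**Figure D4:**
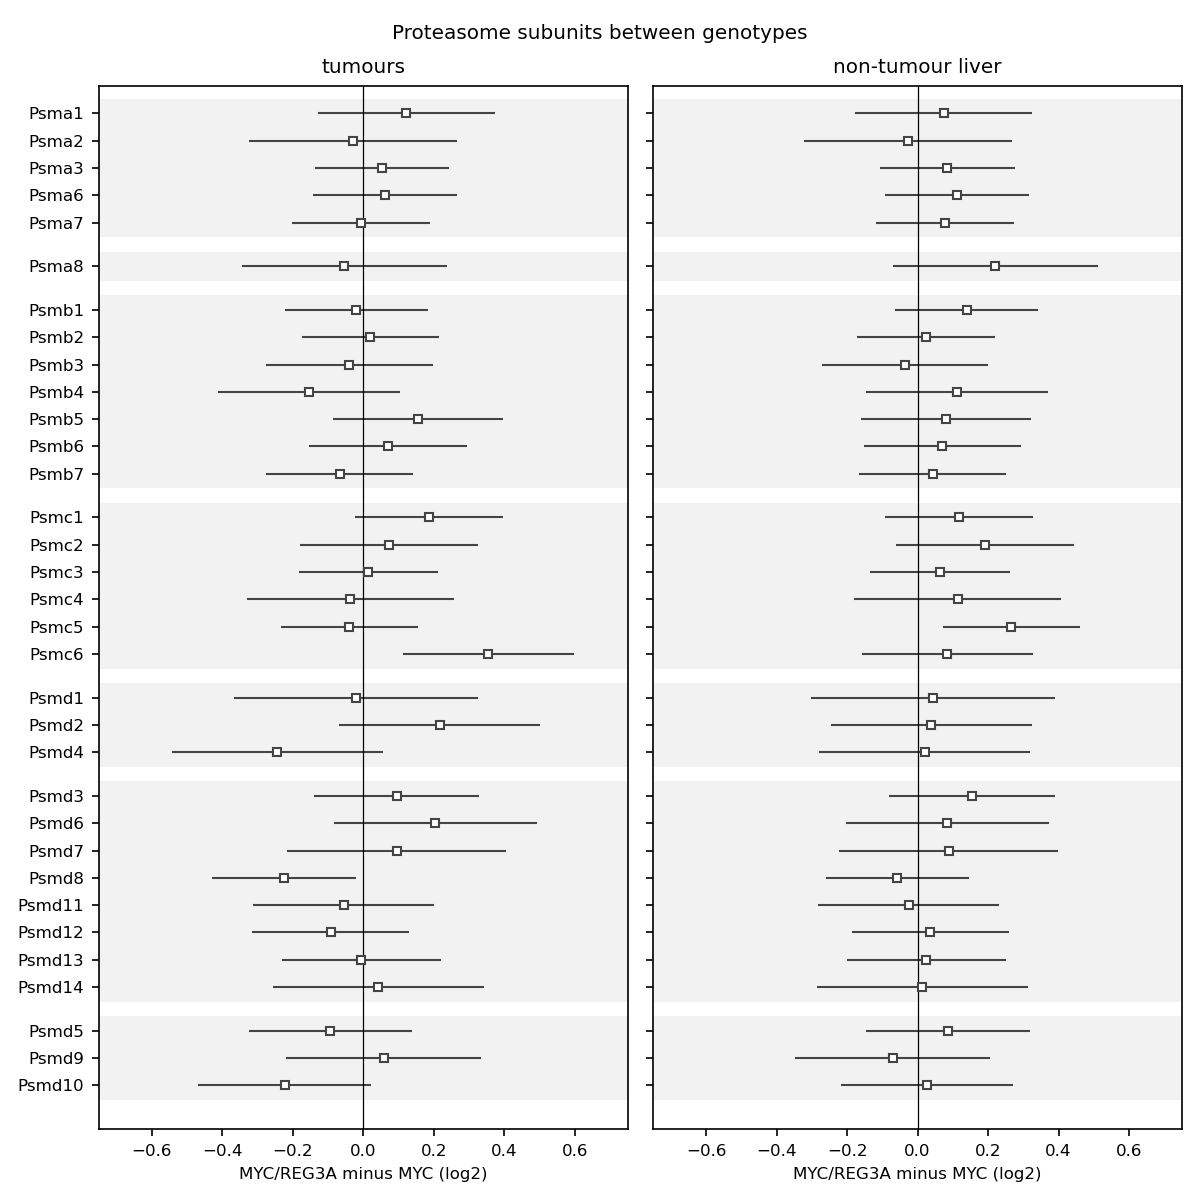
Differences between genotypes (horizontal axis, MYC/REG3A minus MYC, log2) for the 33 subunits, in tumours on the left and non-tumour liver on the right, as limma estimates with 95% intervals. All squares are open, since no adjusted p was under 0.05; Psmc6 lies at 0.35 in tumours and Psmc5 at 0.27 in liver.

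The immunoproteasome subunits, which replace Psmb5, Psmb6 and Psmb7 after interferon, all fell in MYC tumours (3 of 3), while 0 of 3 were called in MYC/REG3A tumours. Of all tested genes, 15.8% fell in MYC tumours and 4.88% in MYC/REG3A tumours. Psmb8 measured 6.89, 7.34, 7.36 and 7.17 in MYC/REG3A tumours, against 7.33, 7.32, 7.35 and 7.46 in the livers. It measured 6.86, 6.62, 6.82 and 5.97 in MYC tumours, against 7.78, 7.14, 7.60 and 7.39 in the livers. MYC tumours lay below all MYC livers, the tumour of mouse 4 most, while MYC/REG3A tumours overlapped with their livers. Psmb8 fell by 0.91 on the log2 scale (SE 0.147; adjusted p 0.00221, limma) in MYC tumours, a call kept under all 11 alternatives, and had a change of -0.17 (adjusted p 0.466) in MYC/REG3A tumours. The difference of the changes was 0.74 (95% interval 0.27 to 1.20), with an adjusted p of 0.873, so it was not called.

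Psmb9 measured 7.004, 7.68, 7.69 and 7.89 in MYC/REG3A tumours, against 7.58, 7.37, 7.91 and 7.69 in the livers. It measured 7.99, 7.11, 7.15 and 6.55 in MYC tumours, against 8.23, 7.43, 7.80 and 7.85 in the livers. Each MYC tumour lay below its own liver, though the groups overlapped. The change was -0.07 in MYC/REG3A tumours and -0.63 (adjusted p 0.0324, limma) in MYC tumours, where the call was lost in 4 of 11 alternatives, among them the fit without the mouse as a block (adjusted p 0.078). Psmb10 measured 8.04, 8.72, 8.49 and 8.22 in MYC/REG3A tumours, against 8.74, 8.69, 9.01 and 8.76 in the livers. It measured 8.14, 8.60, 8.11 and 7.91 in MYC tumours, against 8.99, 8.47, 8.72 and 8.82 in the livers. Mouse 2 was the exception in each genotype, with its tumour just above its liver. The changes were -0.43 (adjusted p 0.137, limma) and -0.57 (adjusted p 0.0359), the MYC call being lost in 5 of 11 alternatives, among them without MYC mouse 1, 3 or 4.

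Marker genes of other cell types, many of which also fell in tumours, were listed beside the subunits. Of all tested genes, 4.88% fell in MYC/REG3A tumours and 15.8% in MYC tumours. Of 6 Kupffer cell and macrophage genes, 5 fell in MYC/REG3A tumours and 4 in MYC tumours by limma, with median changes of -1.28 and -1.49. The log2 of their summed level ranged from 9.93 to 11.2 in MYC/REG3A tumours, against 11.6 to 11.9 in livers, and from 10.8 to 11.4 in MYC tumours, against 11.3 to 12.7 in livers. The immunoproteasome, called in MYC tumours only, had median changes of -0.17 in MYC/REG3A tumours and -0.63 in MYC tumours. By mouse, the Kupffer cell and macrophage genes had medians of -1.83, -0.85, -1.50 and -0.56 in MYC/REG3A mice 1 to 4. In MYC mice 1 to 4 they had -1.55, -1.69, -0.97 and -1.54. The immunoproteasome had medians of -0.58, 0.029, -0.23 and -0.29 in MYC/REG3A mice 1 to 4. In MYC mice 1 to 4 it had -0.86, -0.32, -0.65 and -1.30. Of 6 sinusoidal endothelial genes, 4 fell in MYC/REG3A tumours and 5 in MYC tumours, and of 5 stellate cell genes 3 fell in each. Of 2 tested B cell genes, 2 fell in MYC/REG3A tumours and 1 in MYC tumours. Neutrophil genes (0 of 2 in MYC/REG3A tumours and 2 of 2 in MYC tumours) and bile duct genes (0 of 4 and 2 of 4) were called lower in MYC tumours. Of 3 tested T cell genes 0 were called in either genotype. All 7 proliferation genes rose in MYC/REG3A and in MYC tumours, where 7.58% and 17.4% of all tested genes did. Median changes of the 7 were 2.13 in MYC/REG3A mice and 1.96 in MYC mice. The part of these cells in the changes of subunits was not tested.

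Proteasome activators held 1 gene of each direction in both genotypes, of 4 tested. Of all tested genes, 7.58% rose and 4.88% fell in MYC/REG3A tumours, and 17.4% rose and 15.8% fell in MYC tumours. Psme3 (PA28 gamma), the activator of the nucleus, measured 8.08, 7.74, 8.04 and 7.89 in MYC/REG3A tumours, against 7.51, 7.40, 7.55 and 7.49 in the livers. It measured 8.08, 8.005, 8.13 and 7.96 in MYC tumours, against 7.53, 7.73, 7.35 and 7.48 in the livers, and no tumour overlapped with a liver. It rose by 0.45 (adjusted p 0.0258, limma) in MYC/REG3A tumours and 0.52 (adjusted p 0.00515) in MYC tumours. Psme4 (PA200) measured 8.997, 9.22, 8.59 and 9.10 in MYC/REG3A tumours, against 9.48, 9.42, 9.39 and 9.46 in the livers. It measured 9.11, 8.91, 9.11 and 8.97 in MYC tumours, against 9.45, 9.54, 9.43 and 9.47 in the livers. It fell by 0.46 (adjusted p 0.0322, limma) in MYC/REG3A tumours and by 0.45 (adjusted p 0.0158) in MYC tumours, with all tumours below all livers. The MYC call was lost without MYC mouse 2 or 4, with adjusted p up to 0.0599. The interferon-induced activators Psme1 (PA28 alpha) and Psme2 (PA28 beta) were not called, at -0.06 and -0.13 in MYC/REG3A tumours and -0.18 and -0.26 in MYC tumours.

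The chaperones that assemble the 20S core were listed with Akirin2, a nuclear import factor of the proteasome. Of these 6 genes, 3 rose in MYC/REG3A tumours and 4 in MYC tumours, where 7.58% and 17.4% of all tested genes did. Psmg1 and Psmg2, which pair to build the alpha ring, had the largest increases. Psmg1 measured 8.96, 8.40, 8.86 and 8.01 in MYC/REG3A tumours, against 7.51, 7.64, 7.60 and 7.54 in the livers. It measured 8.82, 8.93, 8.38 and 8.36 in MYC tumours, against 7.36, 7.51, 7.53 and 7.22 in the livers. It rose by 0.99 (adjusted p 0.00977, limma) in MYC/REG3A tumours and 1.22 (adjusted p 0.00123) in MYC tumours, or 1.98-fold and 2.33-fold. Psmg2 measured 8.83, 8.23, 8.83 and 8.71 in MYC/REG3A tumours, against 7.61, 7.55, 7.63 and 7.60 in the livers. It measured 8.82, 9.32, 8.64 and 9.10 in MYC tumours, against 7.45, 7.65, 7.54 and 7.75 in the livers, and no tumour of either gene overlapped with a liver. Psmg2 rose by 1.05 (adjusted p 0.00386, limma) and 1.38 (adjusted p 0.000406), but by 0.47 and 0.65 when its rows were averaged, still past the threshold.

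Psmg4, which acts with Psmg3 in the same step, rose by 0.56 in MYC/REG3A tumours and 0.59 in MYC tumours (adjusted p 0.0232 and 0.00716, limma). Psmg3 rose by 0.30 in MYC tumours (adjusted p 0.0391), a call lost in 7 of 11 alternatives, and had a change of 0.11 in MYC/REG3A tumours. Pomp, which matures the beta rings, was not called, at 0.10 in MYC/REG3A tumours and 0.13 in MYC tumours. Akirin2 was not called either, at 0.07 in MYC/REG3A tumours and -0.21 (adjusted p 0.168, limma) in MYC tumours. The difference between genotypes was not called for any of the 6 genes.

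**Figure D5:**
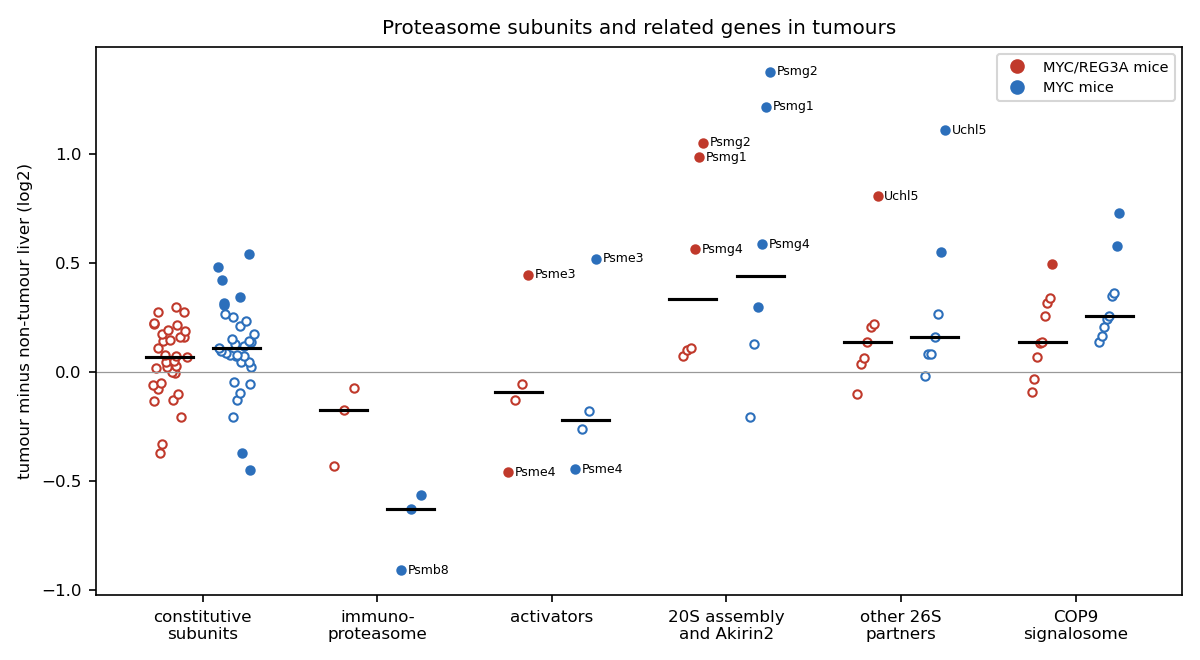
Changes in tumours (vertical axis, log2) of the constitutive subunits and of 5 related groups of genes, MYC/REG3A mice left of MYC mice in each pair, filled where the adjusted p of limma is under 0.05, with lines for medians. Psmg1 and Psmg2 lie at 0.99 and 1.05 in MYC/REG3A tumours, and at 1.22 and 1.38 in MYC tumours, beyond the range of the constitutive subunits, while Psmb8 lies at -0.91 in MYC mice.

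Of 7 tested partners of the 26S proteasome, 1 rose in MYC/REG3A tumours (14.3%) and 2 in MYC tumours (28.6%). Of all tested genes 7.58% and 17.4% did. Uchl5, a deubiquitinase bound to the base, measured 8.47, 7.83, 8.22 and 8.15 in MYC/REG3A tumours, against 6.96, 7.47, 7.55 and 7.46 in the livers. It measured 8.63, 8.54, 8.40 and 8.80 in MYC tumours, against 7.46, 7.59, 7.55 and 7.33 in the livers, with no overlap in either genotype. It rose by 0.81 (adjusted p 0.0209, limma) and 1.11 (adjusted p 0.00205). Psmf1, the inhibitor PI31, rose by 0.55 (adjusted p 0.00544, limma) in MYC tumours and had a change of 0.22 (adjusted p 0.217) in MYC/REG3A tumours.

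Regulators of the subunit genes gave 1 fall in MYC/REG3A tumours, and 1 rise and 1 fall in MYC tumours, of 7 tested. Each of these is 14.3% of the list. Of all tested genes, 7.58% rose and 4.88% fell in MYC/REG3A tumours, and 17.4% rose and 15.8% fell in MYC tumours. Nfe2l1 was not called, at -0.03 in MYC/REG3A tumours and -0.25 (adjusted p 0.112, limma) in MYC tumours. Ngly1, the enzyme that removes sugar chains from the Nfe2l1 protein, fell by 0.55 (adjusted p 0.0482, limma) in MYC/REG3A tumours and by 0.76 (adjusted p 0.0059) in MYC tumours. The MYC/REG3A call was lost in 7 of 12 alternatives. Nfe2l2, regulator of antioxidant genes, rose by 0.42 (adjusted p 0.0276) in MYC tumours and had a change of 0.26 in MYC/REG3A tumours. The MYC call was lost without MYC mouse 1, 3 or 4, with adjusted p up to 0.122. Of 8 tested shuttle factors and segregase subunits, Ubqln4 alone (12.5%) was called, rising by 0.45 in MYC/REG3A tumours and 0.70 in MYC tumours. Of 9 subunits of the COP9 signalosome, a paralogue of the lid, 1 rose in MYC/REG3A tumours (11.1%) and 2 in MYC tumours (22.2%). The shares of all tested genes that rose were 7.58% and 17.4%. The COP9 genes called were Cops7b (0.49 and 0.73) and, in MYC tumours, Cops5 (0.58). No gene of these lists was called for the difference between genotypes. In MYC/REG3A mice, all these calls except that of Psmg2 were lost in at least 1 alternative, mostly without mouse 1 or 3. Without MYC/REG3A mice 2 and 4 together, those of Psme3, Ubqln4 and Cops7b were lost.

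The mouse Myc row was checked in every sample. It measured 7.10, 9.37, 7.26 and 7.58 in MYC/REG3A tumours, against 6.99, 9.24, 7.69 and 7.97 in the livers. It measured 7.09, 7.24, 7.17 and 6.84 in MYC tumours, against 7.92, 7.78, 7.61 and 7.41 in the livers. MYC/REG3A mouse 2 was high in both tissues, and every MYC tumour lay below every MYC liver. Myc fell by 0.59 (adjusted p 0.00673, limma) in MYC tumours, but with an adjusted p of 0.338 without the mouse as a block, and had a change of -0.14 in MYC/REG3A tumours. Whether these probes bind the transgene is not given in the sources used here, so the row checks no label, and REG3A itself was not analysed here.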

How the data were processed

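Values are log2 RMA levels as the authors deposited them; the submitters' processing notes name Expression Console 1.4.1 from Affymetrix. RMA equalises the arrays' distributions, so changes are relative to other genes. The log base was inferred from how far the values extend. The genome build of the array design is not given in the sources used here. Detection calls were not used here. Precision is limited by how many arrays there are.

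Of 41345 rows, 23521 had 1 gene symbol. Genes above the array's median in at least 4 of 16 arrays were kept for testing. The 2-sided tests were lmFit and eBayes of limma 3.58.1 (R 4.3.3), with Benjamini-Hochberg adjustment over 13555 genes, at a threshold of 0.05. Tumour comparisons and their difference had the mouse as a fixed block; comparisons between genotypes, of different animals, had none. Pairing is by animal: within-mouse correlations of deviations from group means were 0.0963 to 0.325, and 8 of 8 tumours were closest to their own liver. Intervals are 95% and from limma.

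The members and lists were chosen with earlier results of these data known. Values in every sample were given for called members moving alike in all 8 mice, the smallest MYC tumour change per role, members that fell, Psma8 and up to 4 related genes of lowest p per list; other members were added by role after their values were seen. Tested on simulated data with 200 of 13555 genes changed by 1 on the log2 scale, 80.5% were recovered in each tumour comparison, 40.5% for their difference, 85% for genotype in liver and 80% in tumours. The largest change of a subunit was 0.54, so these rates do not give the recovery of changes as small as those of the subunits. Alternatives were array centring, no filter, averaged rows, another variance prior, array weights, each mouse left out, MYC/REG3A mice 2 and 4 left out, fewer arrays and no block. Promoters were searched on both strands.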

Additional observations from a re-analysis of the deposited data

Results flagged for a closer look

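In 6 of 136 groups of 4 samples, 1 sample lay far from the other 3, no more often than the about 1 in 20 groups given by chance. Groups of different subunits share arrays, so the flags are not independent. Psmb2 was high in the tumour of MYC mouse 2, at 10.14, where the other MYC tumours had 9.89 to 9.92. In the tumour of MYC/REG3A mouse 2, which also stood apart over all genes, 3 subunits were low: Psmb7 at 8.36 (others 8.51 to 8.54), Psmc3 at 7.69 (7.93 to 7.95) and Psmd5 at 7.99 (8.34 to 8.40). Psmd7 was high in the tumour of MYC/REG3A mouse 1, at 9.63, where the others had 9.09 to 9.15. Psmc6 was low in the non-tumour liver of MYC mouse 1, at 9.17, where the others had 9.48 to 9.53.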

How the results depend on the processing

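The count of 8 called subunits in MYC tumours depended on the mice: leaving out 1 MYC mouse gave 2 to 4 (fewer samples), and a fit over the MYC arrays alone gave 3. Without the mouse as a block it was again 8, with 6 higher and 2 lower. It was 6 with centred arrays, 7 with array weights and 8 under the other settings. In MYC/REG3A tumours, for the difference of the changes and between genotypes, the count stayed 0 under all alternatives run. These counts were not set beside the share of all tested genes called under the same setting. They therefore do not show that a loss of calls was particular to the subunits. The median change, with 1 mouse left out, ranged from 0.04 to 0.12 in MYC/REG3A tumours and from 0.06 to 0.17 in MYC tumours. Psmb4 and Psmc5 were the 2 of 8 calls kept under every alternative. Estimates near 0 changed sign, all uncalled, and the cause was not tested. With 1 mouse left out, lowest to highest, the estimate in MYC/REG3A tumours was -0.0032 to 0.13 for Psma2, -0.023 to 0.087 for Psmb3, -0.029 to 0.065 for Psmc3, -0.054 to 0.048 for Psmd13, -0.20 to 0.096 for Psmb9, -0.17 to 0.084 for Psme1, -0.068 to 0.14 for Ube3c, -0.074 to 0.072 for Nfe2l1 and -0.066 to 0.16 for Faf1. With array weights, Psmb9 was 0.035, Psme1 0.0103 and Nfe2l1 0.0104, and with centred arrays Psmc3 was -0.00108. In MYC tumours with 1 mouse left out it was -0.021 to 0.23 for Psma2, -0.060 to 0.12 for Psmb3, -0.098 to 0.13 for Psmd10, -0.026 to 0.083 for Psmd13 and -2.83e-05 to 0.22 for Mafg, and with centred arrays Psmd13 was -0.00205. The sources used here hold no signal over background.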
